A study of Mus musculus with 6 samples.

Results

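Accessible chromatin was followed at 6 genes of the glucocorticoid response, namely the hormone-induced kinase gene Sgk1, its fellow targets Tsc22d3, Fkbp5, Per1 and Zbtb16, and Nr3c1, which encodes the glucocorticoid receptor. Every ATAC-seq peak that the deposited table assigned to any of these genes and placed at most 100000 bp from a transcription start site (TSS) was taken, which gave 101 of 175929 peaks. Sgk1 held 25 of them, Tsc22d3 20, Fkbp5 9, Per1 20, Zbtb16 1 and Nr3c1 26. The cells were AML1/ETO 9a (AE9a) mouse leukemia cells that carried 1 floxed allele of Usp18 and a UBCER-Cre transgene, a Cre recombinase driven by the ubiquitin C promoter and switched on by tamoxifen. The AE9a oncogene had been delivered by a retrovirus that also encodes GFP, and the leukemia was grown in irradiated young adult recipient mice. After the mice became sick they received oil, leaving the cells Usp18+/f, or tamoxifen in oil, which made them Usp18+/Δ. Lin- c-Kit+ cells were sorted from the spleen 3 days after the first injection, and 3 libraries per group were sequenced (oil 1, 2 and 4, and tamoxifen 1, 3 and 4). The study's methods describe these sorted cells as also GFP+ and taken after 3 injections of oil or tamoxifen. Both groups carried AE9a and UBCER-Cre, so tamoxifen itself and the loss of the Usp18 allele cannot be told apart. The labels do not say that each library came from its own mouse. The study's methods name 3 mice per group for the sorted cells, of which a set served for ATAC-seq. Its reporting summary counts fewer ATAC-seq replicates than there are libraries in a group here, but does not name the cells for that count. Each SD and p-value therefore covers the spread between libraries, which may be technical.

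Glucocorticoids enter the cell and bind the receptor encoded by Nr3c1, which is held in the cytoplasm by HSP90 and its co-chaperones and then moves to the nucleus. There it binds glucocorticoid response elements, inverted repeats of a hexamer, and recruits coactivators that open and acetylate the surrounding chromatin. Lymphoid and myeloid cells answer with a shared set of genes, among them feedback inhibitors of the receptor (Fkbp5) and anti-inflammatory effectors (Tsc22d3, also called GILZ), and in lymphoid cells glucocorticoids are used as drugs because they induce cell death.

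Letters of the response element were looked for first, because they mark where the receptor could contact the members. The element searched was AGAACA, 3 free bases and then TGTTCT, and a best match is given for each of the 4 genes below, taken from the mm10 reference, plus strand, with capitals for the letters that match the 12 fixed positions.
Per1 chr11:69097076-69097090: AGAACAcgaTGTTCc
Fkbp5 chr17:28488336-28488350: gGAACAgtcaGTTCT
Sgk1 chr10:22003573-22003587: AGAAaAggaaGTTCT
Tsc22d3 chrX:140540827-140540841: AGAACAagaTGTggc
The Per1 match, in a peak 1738 bp upstream of the gene's TSS, had 1 mismatch. Those of Fkbp5 (peak at -2298 bp) and Sgk1 (peak at +9011 bp) had 2, and that of Tsc22d3 (peak at +1803 bp) had 3, as had the best matches of 2 further Tsc22d3 peaks that are not printed. None of these 4 peaks passed the test between the groups. The Per1, Fkbp5 and Sgk1 matches do not lie wholly within the central 200 bp counted next. No background was counted over whole peaks. Within the central 200 bp of the peaks, a match with at most 3 mismatches on either strand lay in 7 of the 101 members and in 12.4% of all 175738 peaks on the assembled chromosomes, and one with at most 2 mismatches in none (0) of the members and 1.59% of all peaks. The single hexamer AGAACA or its reverse TGTTCT lay in 13 members and in 14.6% of all peaks. Fkbp5 held 4 of those 13 in its 9 peaks and Per1 none (0) in its 20. The NF-kB motif lay in 10 members, 5 of them at Tsc22d3 and none (0) at Sgk1, and in 5.03% of all peaks.

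The sequences of 3 further stretches are shown because they are the Fkbp5 peak that passed the test and the Sgk1 peaks with the highest fold changes. The first is the Fkbp5 promoter peak as far as the TSS, read on the minus strand with CCAAT or its reverse ATTGG, and the octamer ATTTGCAT, in capitals. The second (300 bases of the peak at -2231 bp) and the third (peak at -31775 bp) are Sgk1 peaks, read on the plus strand, with TGTGGT (the runt-domain core that AML1 and AML1/ETO proteins bind) and GGAAGT (an ETS core) in capitals, each also as its reverse, ACCACA and ACTTCC. These motifs were chosen after the sequences had been read.
Fkbp5 promoter, chr17:28486150-28486355: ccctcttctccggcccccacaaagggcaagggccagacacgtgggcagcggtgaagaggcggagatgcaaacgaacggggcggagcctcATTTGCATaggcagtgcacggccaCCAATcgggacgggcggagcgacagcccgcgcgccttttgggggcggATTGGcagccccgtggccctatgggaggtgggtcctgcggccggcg
Sgk1 peak at -2231 bp, chr10:21976291-21976590: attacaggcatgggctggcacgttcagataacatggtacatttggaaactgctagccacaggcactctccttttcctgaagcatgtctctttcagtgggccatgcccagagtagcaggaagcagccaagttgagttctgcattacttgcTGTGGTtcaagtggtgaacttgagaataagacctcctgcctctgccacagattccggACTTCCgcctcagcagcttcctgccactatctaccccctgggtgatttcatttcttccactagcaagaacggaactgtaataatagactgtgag
Sgk1 peak at -31775 bp, chr10:21946783-21947011: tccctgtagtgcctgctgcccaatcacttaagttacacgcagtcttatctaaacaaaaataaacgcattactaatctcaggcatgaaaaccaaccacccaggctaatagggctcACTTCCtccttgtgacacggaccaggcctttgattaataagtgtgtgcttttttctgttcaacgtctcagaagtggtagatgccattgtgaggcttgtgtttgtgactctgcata
The Fkbp5 stretch was 69.4% G and C with 20 CG dinucleotides in 206 bases, against medians of 52.9% and 5 over the same 206 bases before 32851 RefSeq starts. CCAAT in either direction occurred 2 times in it, which 8.22% of those promoters matched or exceeded, and the octamer occurred in 1.40% of them. Those promoters were not matched to it for G and C content or accessibility. As the motifs were picked from this sequence, their shares are a description. In the central 200 bp of peaks, TGTGGT lay in 22 of the 101 members and 18.7% of all peaks, and GGAAGT in 14 members and 18.2% of all peaks. Neither the AGAACA hexamer nor the NF-kB motif occurs in the 3 printed stretches.

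Each library held 57.4 to 74.7 M mapped tags (1 M is 1000000), of which 17.5 to 21.1 M fell in peaks, and a median peak held 45 to 57. Oil 1 and oil 2 differed by little more than counting noise, their chi-square over the peaks being 1.03 for each degree of freedom, where the other pairs of 1 group gave 1.19 to 2.67. They were kept as separate libraries because the difference still exceeded counting noise. Results that end when they are averaged into 1 sample are marked below. Tamoxifen 4 stood apart from tamoxifen 1 (2.65) and tamoxifen 3 (2.67), which differed by 1.48 from each other. By Pearson correlation, tamoxifen 4 was closer to the oil libraries (0.9614 to 0.9655) than to tamoxifen 1 (0.9506) or tamoxifen 3 (0.9511). Tamoxifen 1 and tamoxifen 3 correlated at 0.9693 with each other and at 0.9355 to 0.9475 with the oil libraries. The cause of this difference between the tamoxifen libraries was not tested. None (0) of the 15 Usp18 peaks had an adjusted or an unadjusted p under 0.05 in DESeq2, with log2 fold changes from -0.23 to 0.31, but the labels do not give the deleted exons, so accessibility does not check the deletion. Of the markers of the sorted blasts, Kit, Myb, Spi1 and Cd34 had promoter peaks and Ptprc had none. The 5 blast markers summed to 4896 to 4958 normalised tags per kb in oil and 5155 to 5920 in tamoxifen. Of them, only Cd34 had its groups apart, at 273.7 to 435.0 in oil and 786.7 to 1234 in tamoxifen. The groups overlapped at Kit (2425 to 2525 and 2397 to 2724), Myb (1275 to 1375 and 1204 to 1315) and Spi1 (715 to 829 and 700 to 763). The rise of the sum is thus not a rise of the blast markers as a set. The defining lymphoid markers Cd3e, Cd8a and Ms4a1 had no promoter peak, nor had the neutrophil marker Ly6g. Among T cell and B cell markers Cd3g (74.8 to 110.3 in oil, 61.2 to 90.7 in tamoxifen) and Cd79a (158.6 to 185.5 and 129.9 to 178.8) had a low signal. Erythroid markers (3 of 3 with a peak) summed to 2664 to 2926 normalised tags per kb in oil and 2500 to 2652 in tamoxifen, and mature myeloid markers (2 of 3) to 205 to 216 and 220 to 285. The mature myeloid markers did not move together. Tamoxifen 3 held 230.5 at Itgam, against 114.1 to 119.6 in oil, but 54.1 at Adgre1, against 85.2 to 101.7 in oil. The part of these marker differences in the results below was not tested.

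After tamoxifen, 2 of the 101 member peaks were more accessible at an adjusted p under 0.05, at the promoter of Fkbp5 and upstream of Nr3c1, and none (0) was less accessible. Over all peaks 1.21% were higher and 0.167% lower by the same rule, so the members' count was near this background. Counts here are DESeq2 Wald tests over all peaks with Benjamini-Hochberg adjustment. The Nr3c1 peak also passed a fold change over 2, a rule met by 0.641% of all peaks. At an unadjusted p under 0.05, 10 members were higher and 2 lower, against 6.16% and 2.82% of all peaks. The 3 tamoxifen libraries lay above all 3 oil libraries in 18 members (11.9% of all peaks) and below them in 5 (10.0% of all peaks). The log2 fold change of tamoxifen over oil was above 0 in 68 of 101 members and in 87455 of all 175929 peaks. Its median was 0.11 in the members and -0.0015 in all peaks. The members include runs of neighbouring peaks, so they are not separate observations. Fkbp5 had the highest median of the 6 genes (0.37), followed by Tsc22d3 (0.18), Nr3c1 (0.09), Zbtb16 (0.08, its only peak), Per1 (0.07) and Sgk1 (0.02). A lower tag count from fewer open cells and from less open chromatin per cell cannot be told apart in these bulk libraries.

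**Figure D1:**
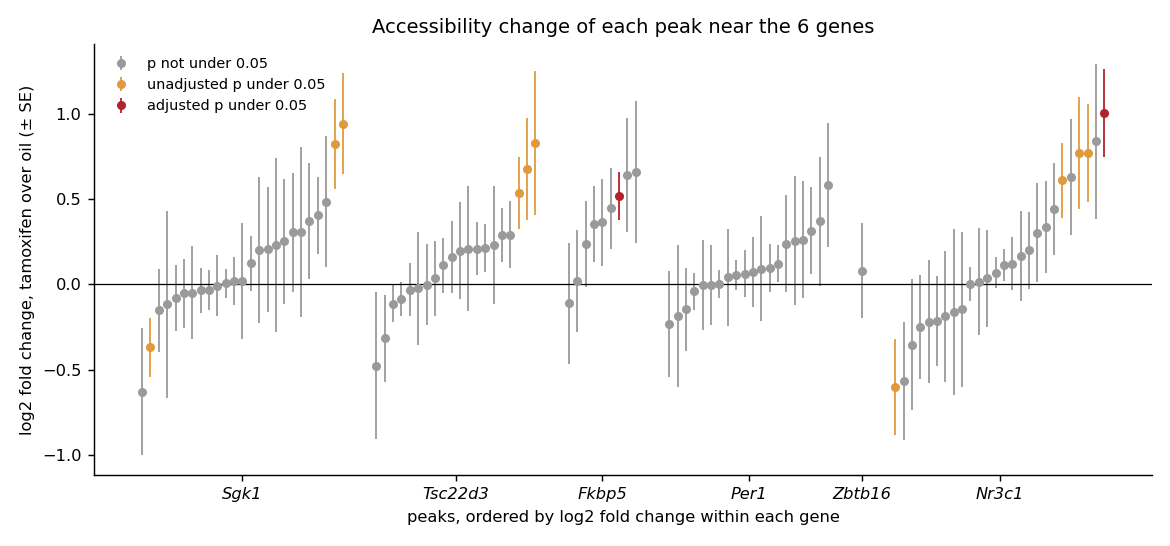
The log2 fold change of tamoxifen over oil (vertical axis, with the SE of DESeq2) is shown for each of the 101 peaks, ordered within its gene. Points with an adjusted p under 0.05 are red, those with only an unadjusted p under 0.05 orange. The 2 red points are the Fkbp5 promoter peak at 0.52 and the Nr3c1 upstream peak at 1.01.

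Fkbp5 encodes FKBP51, a co-chaperone that lowers the receptor's affinity for hormone and so feeds back on it. Its promoter peak (mm10, chromosome 17, 28486129 to 28486355, across the TSS of NM_010220) held 158.8, 180.5 and 163.2 normalised tags in oil 1, 2 and 4. In tamoxifen 1, 3 and 4 it held 256.2, 247.3 and 218.0. The lowest tamoxifen library thus stood above the highest oil library. The log2 fold change was 0.52 with an SE of 0.142 (DESeq2, adjusted p = 0.0242). The call was lost when any library but tamoxifen 4 was left out (adjusted p from 0.0901 to 0.295), and when oil 1 and oil 2 were averaged (adjusted p = 0.173), while the log2 fold change stayed between 0.47 and 0.59. Without tamoxifen 4 the adjusted p was 0.00528.

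The remaining 8 Fkbp5 peaks went the same way on the whole, since 7 had a log2 fold change above 0, although none (0) reached an unadjusted p under 0.05. Their summed normalised tags were 325.3, 361.9 and 355.9 in oil and 500.8, 437.8 and 367.1 in tamoxifen 1, 3 and 4. The groups did not overlap, but tamoxifen 4 exceeded the highest oil library by little. In intron 1 the peak at +388 bp held 59.6, 53.6 and 60.1 normalised tags in oil and 93.8, 79.1 and 63.4 in tamoxifen (log2 fold change 0.45, SE 0.239, adjusted p = 0.603). Further into intron 1, at +18231 bp, the values were 24.3, 30.2 and 25.1 in oil and 50.3, 43.4 and 30.7 in tamoxifen (0.64, SE 0.335, adjusted p = 0.581). The upstream peak with the response element match printed above went from 52.9, 44.9 and 52.9 to 74.4, 65.7 and 54.0 (0.37, SE 0.255, adjusted p = 0.783). In each of these 3 peaks tamoxifen 4 was the lowest tamoxifen library and still lay above all oil libraries.

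**Figure D2:**
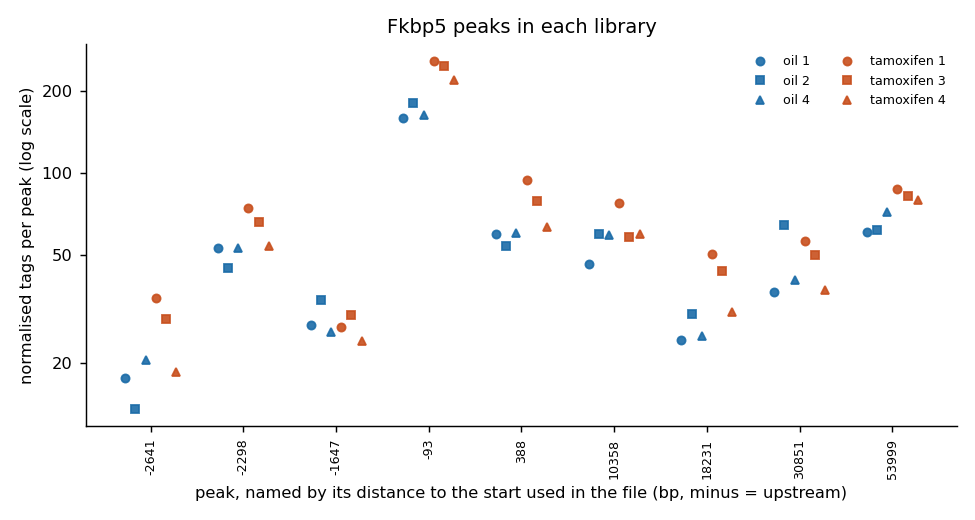
Normalised tags (log scale) of the 9 Fkbp5 peaks, each named by its distance to the TSS, are plotted for the 3 oil libraries in blue and the 3 tamoxifen libraries in orange. Tamoxifen lies above oil without overlap in 5 of the 9 peaks (11.9% of all peaks), and the promoter peak at -93 bp is the tallest, at 158.8 to 180.5 in oil and 218.0 to 256.2 in tamoxifen.

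Nr3c1, the receptor gene itself, had its change in a group of 6 peaks 31742 to 39285 bp upstream of the start that the table used. These limits were drawn after the values had been seen. The table's start lies 2034 bp downstream of the start of NM_008173 in the reference annotation, so distances at Nr3c1 refer to the table's start alone. The peak at -36087 bp (chromosome 18, 39523170 to 39523495) held 50.7, 38.0 and 32.3 normalised tags in oil and 74.4, 80.2 and 86.6 in tamoxifen. Its groups stood well apart, with a log2 fold change of 1.01 (SE 0.257, DESeq2, adjusted p = 0.0116). The call was lost without oil 2 (adjusted p = 0.151), oil 4 (0.254), tamoxifen 1 (0.0628) or tamoxifen 3 (0.143) and with oil 1 and oil 2 averaged (0.0674), and held without oil 1 (0.0237) or tamoxifen 4 (0.0338). In each of these fits the log2 fold change lay between 0.86 and 1.20.

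The 5 other peaks of that group had log2 fold changes from 0.61 to 0.84 and adjusted p above the threshold. In all 6 peaks, a group chosen on its values, every tamoxifen library lay above every oil library, as in 11.9% of all peaks. Summed over the 6, the normalised tags were 230.5, 193.1 and 196.3 in oil and 338.4, 396.6 and 314.0 in tamoxifen, a ratio of means of 1.69. The peak at -32075 bp (39519173 to 39519467) spans the start of NM_001361212, a transcript with a distal first exon. That peak held 74.99, 57.6 and 72.6 normalised tags in oil and 103.5, 127.0 and 83.8 in tamoxifen (log2 fold change 0.61, SE 0.222, adjusted p = 0.195). Its neighbour at -31742 bp held 37.5, 33.2 and 31.4 in oil against 60.9, 68.0 and 45.7 (0.77, SE 0.289, adjusted p = 0.221, 0.0454 in edgeR and 0.0608 to 1.00 in DESeq2 with 1 library left out). Here too the groups were separate.

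The main Nr3c1 promoters, by contrast, were close to level. In the peaks at -4384, -3684 and -2704 bp, the strongest of the gene, the sums were 1787, 1746 and 1618 normalised tags in oil and 1853, 1894 and 1647 in tamoxifen. Their log2 fold changes were 0.00, 0.12 and 0.07, each with an SE of at most 0.10, and the groups overlapped. The 13 peaks downstream of the table's start summed to 529.4 ± 39.9 (SD, n = 3) in oil and 533.5 ± 50.8 (SD, n = 3) in tamoxifen. Farther upstream, at -65790 bp, the order was turned, with 61.8, 65.4 and 45.7 normalised tags in oil and 36.7, 35.7 and 41.0 in tamoxifen (log2 fold change -0.60, SE 0.281, adjusted p = 0.464).

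**Figure D3:**
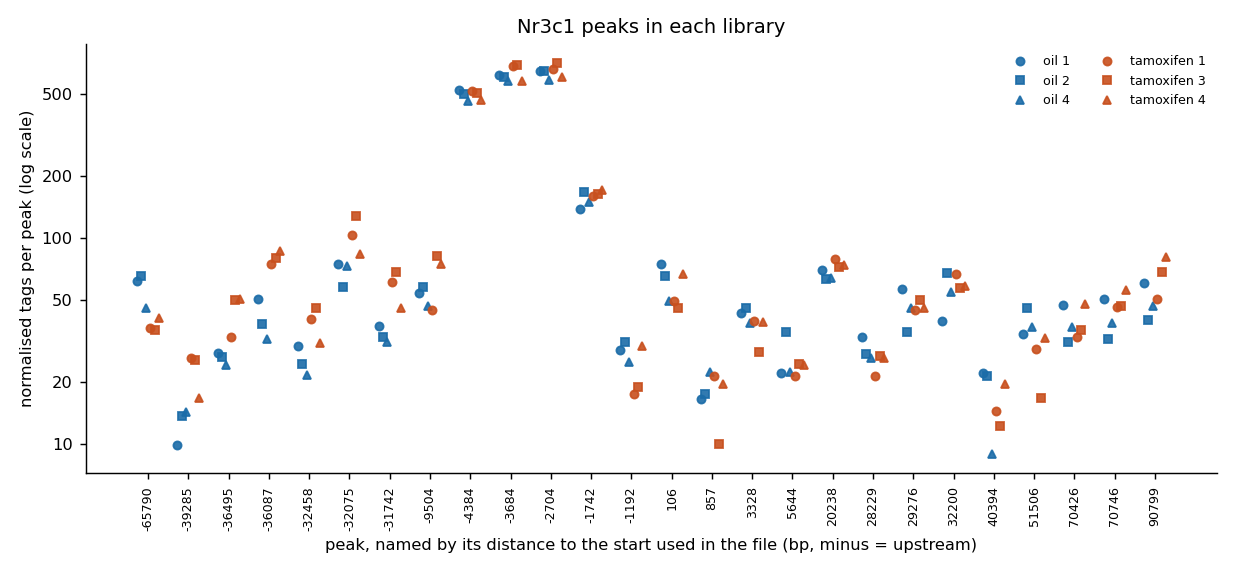
Normalised tags (log scale) of the 26 Nr3c1 peaks are plotted in order of their distance to the start that the table used, oil in blue and tamoxifen in orange. The 6 peaks from -39285 to -31742 bp have all tamoxifen points above all oil points, whereas the tall peaks from -4384 to -2704 bp overlap.

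Sgk1 encodes a serum- and glucocorticoid-induced kinase that acts below PI3 kinase and targets ion channels, NEDD4L, NDRG1 and FOXO factors. None (0) of its 25 peaks passed at an adjusted p under 0.05, although 2 intronic peaks upstream of the main promoters came close. The peak at -31775 bp, in intron 2 of NM_001161845 (chromosome 10, 21946783 to 21947011), held 46.3, 41.0 and 41.2 normalised tags in oil and 66.7, 98.0 and 63.4 in tamoxifen. Its log2 fold change was 0.82 (SE 0.263, DESeq2, adjusted p = 0.0926, and 0.0287 in edgeR). The peak at -2231 bp, in intron 3 of the same transcript (21976275 to 21976607), held 35.3, 31.2 and 34.1 in oil and 59.0, 88.0 and 47.5 in tamoxifen. Its log2 fold change was 0.94 (SE 0.297, adjusted p = 0.0827, and 0.0280 in edgeR). Tamoxifen 3 was the highest and tamoxifen 4 the lowest tamoxifen library in both, and neither overlapped oil. They were the only 2 of the 25 Sgk1 peaks with all tamoxifen libraries above oil, where 11.9% of all peaks had this. Without tamoxifen 4 both passed in DESeq2 (adjusted p = 0.0299 and 0.0118). Without tamoxifen 3 their log2 fold changes were 0.60 and 0.67, both with an adjusted p of 1.00.

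The promoters of Sgk1 were nearly level. The tallest peak, 84 bp upstream of the TSS of NM_011361 (21994461 to 21994703), held 689.2, 678.9 and 684.0 normalised tags in oil and 701.0, 718.6 and 645.6 in tamoxifen (log2 fold change 0.01, SE 0.085). The groups overlapped, and the sign of the change turned without tamoxifen 1 or tamoxifen 3. At the TSS of NM_001161849 the peak held 56.2, 63.4 and 74.4 in oil and 63.8, 52.4 and 58.7 in tamoxifen (-0.15, SE 0.245). The peak 783 bp upstream of that TSS held 180.9, 173.6 and 183.8 in oil and 107.3, 140.4 and 168.6 in tamoxifen. It was the only Sgk1 peak with all tamoxifen libraries below oil, as 10.0% of all peaks were (log2 fold change -0.37, SE 0.171, adjusted p = 0.455).

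From 2062 to 9011 bp past the TSS, 10 neighbouring Sgk1 peaks split the tamoxifen libraries. The stretch, whose limits were drawn after the values had been seen, runs from 21996541 in intron 7 of NM_011361 to 22003854, which is 3951 bp past the end of the gene. Its summed normalised tags were 1316, 1356 and 1409 in oil. Tamoxifen 1 held 1954, tamoxifen 3 held 2184 and tamoxifen 4 held 847.8, which are 1.44, 1.61 and 0.623 times the oil mean of 1360 ± 47.0 (SD, n = 3). In all 10 peaks tamoxifen 1 and tamoxifen 3 lay above every oil library and tamoxifen 4 below every one. Over all peaks of the table, tamoxifen 4 lay below every oil library in 27.9%, and tamoxifen 1 and tamoxifen 3 both above in 22.1%. The other 15 Sgk1 peaks summed to 2439, 2419 and 2377 in oil and 2444, 2588 and 2231 in tamoxifen, a far narrower range. Without tamoxifen 4, 5 of the 10 peaks had an adjusted p under 0.05, with log2 fold changes from 0.28 to 0.78 over the 10. Their direction was fixed by how the stretch was chosen, since tamoxifen 1 and tamoxifen 3 exceeded every oil library throughout it. These calls are therefore a description, and neighbouring peaks are not separate observations. Of the 25 Sgk1 peaks, 7 passed in that fit, these 5 among them, where 3.70% of all peaks passed.

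**Figure D4:**
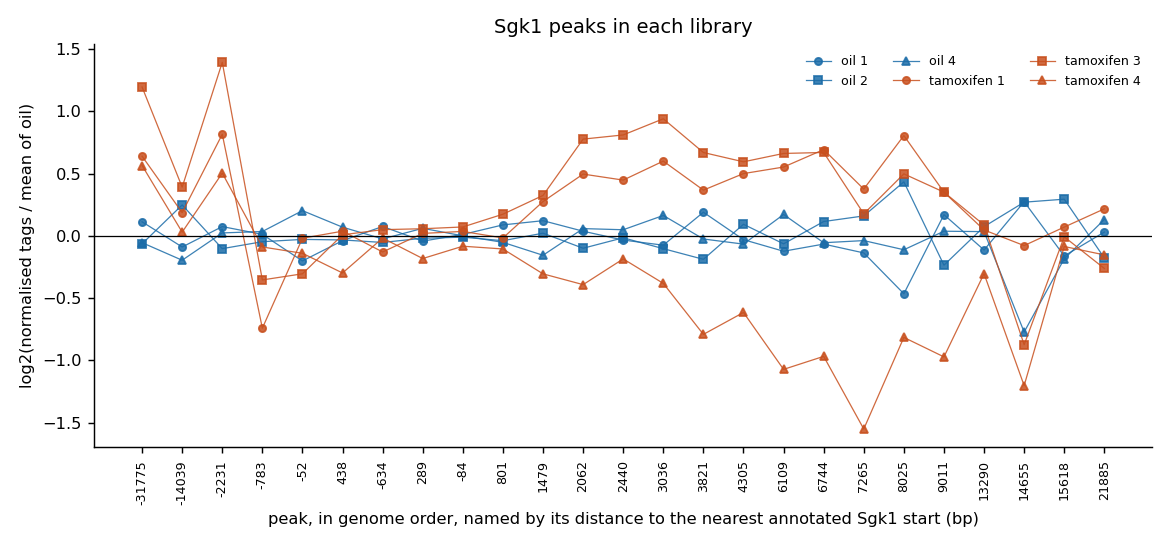
For each of the 25 Sgk1 peaks in genome order, named by its distance to the nearest annotated Sgk1 TSS, the log2 ratio of each library to the oil mean is shown. From +2062 to +9011 bp tamoxifen 1 and tamoxifen 3 run above the oil libraries and tamoxifen 4 below them, while near the promoters the libraries come together.

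Tsc22d3 encodes GILZ, a leucine zipper protein that restrains NF-kB and AP-1. None (0) of its 20 peaks had an adjusted p under 0.05, and 3 had an unadjusted p under 0.05, all higher after tamoxifen (6.16% of all peaks were). The peak 4839 bp downstream of the nearest TSS (chromosome X, 140537719 to 140537940) held 103.7, 66.3 and 87.0 normalised tags in oil and 137.3, 137.0 and 97.8 in tamoxifen. Oil 1 and tamoxifen 4 overlapped there, and the log2 fold change was 0.54 (SE 0.212, adjusted p = 0.281, 0.0431 without tamoxifen 4 and 1.00 without tamoxifen 3). At +20524 bp the values were 29.8, 33.2 and 30.5 in oil and 51.2, 56.8 and 41.9 in tamoxifen (0.68, SE 0.300, adjusted p = 0.405), with no overlap. The remaining one, at +2286 bp, held 22.1, 16.6 and 13.4 in oil and 36.7, 39.0 and 16.8 in tamoxifen. It overlapped between the groups (0.83, SE 0.423, adjusted p = 0.553). The promoter of the long isoform NM_001077364 had 2 peaks, with summed tags of 211.7, 275.1 and 266.2 in oil and 308.4, 294.1 and 289.7 in tamoxifen, and in each peak the groups were apart. Of the 20 Tsc22d3 peaks, 3 had all tamoxifen libraries above oil (11.9% of all peaks) and 2 had them below (10.0% of all peaks). The peak with the most tags, at +22237 bp, held 472.0, 439.9 and 477.8 in oil and 418.6, 425.6 and 463.9 in tamoxifen (-0.09, SE 0.100), which overlapped.

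Per1, a period gene of the circadian clock that glucocorticoids induce directly, was close to level at its promoters. None (0) of its 20 peaks reached an unadjusted p under 0.05 in DESeq2, and the groups were apart in 1 of 20, with tamoxifen above (11.9% of all peaks). The peak that holds the closest response element match of the 4 printed, at -1738 bp (chromosome 11, 69097065 to 69097357), had 524.9, 512.1 and 446.4 normalised tags in oil and 565.6, 583.8 and 465.8 in tamoxifen. These overlapped, with a log2 fold change of 0.12 (SE 0.108, adjusted p = 0.871). The promoter peak at -81 bp held 656.2, 602.8 and 607.8 in oil and 645.9, 665.1 and 627.0 in tamoxifen (0.05, SE 0.087). The tallest Per1 peak, at -3774 bp, held 744.4, 719.9 and 685.8 in oil and 714.5, 744.2 and 695.0 in tamoxifen (0.00, SE 0.083). The exception with separate groups was a low peak in intron 21 at +8208 bp, with 19.9, 25.4 and 19.7 in oil and 34.8, 35.7 and 27.0 in tamoxifen (0.58, SE 0.365, adjusted p = 0.720).

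Zbtb16 encodes PLZF, a zinc finger repressor that glucocorticoids induce in many cell types. Its only peak, 24702 bp upstream of the TSS that the table used, held 45.2, 49.7 and 44.8 normalised tags in oil and 50.3, 59.0 and 39.1 in tamoxifen. The groups overlapped (log2 fold change 0.08, SE 0.278, adjusted p = 0.991).

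Tags were then summed over all peaks of each gene and tested in DESeq2 over 19781 genes. Fkbp5 was the member that passed, with 482.7, 542.2 and 532.4 normalised tags in oil and 750.6, 667.8 and 591.7 in tamoxifen. Its fold change was 1.29 (95% interval 1.12 to 1.48, adjusted p = 0.00879), and 5.00% of all genes were higher and 1.02% lower by this rule. The Fkbp5 call was lost without oil 1 (adjusted p = 0.183), oil 4 (0.0582), tamoxifen 1 (0.228) or tamoxifen 3 (0.0700), and with oil 1 and oil 2 averaged (0.0990). Nr3c1 held 2865, 2800 and 2641 in oil and 2945, 3020 and 2898 in tamoxifen. Its groups were separate, but the share of all genes with separate groups was not counted. The fold change was 1.07 (0.989 to 1.15, adjusted p = 0.394). The intervals were 0.970 to 1.13 for Tsc22d3, 0.949 to 1.10 for Per1, 0.834 to 1.35 for Sgk1 and 0.710 to 1.52 for Zbtb16, each around a change that was not detectable here. Without tamoxifen 4 the Sgk1 sum passed, with a log2 fold change of 0.25 (adjusted p = 3.94e-05) in place of 0.09, and without tamoxifen 3 it was -0.03 (adjusted p = 0.987).

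Per kb of peak, the oil level was highest at Per1 (496.1 ± 8.89 normalised tags, SD, n = 3), then Sgk1 (464.6 ± 8.69), Tsc22d3 (450.3 ± 16.2), Nr3c1 (403.3 ± 16.8), Zbtb16 (220.4 ± 11.99) and Fkbp5 (206.8 ± 12.7). Sgk1 and Tsc22d3 overlapped within their spread, as did Zbtb16 and Fkbp5. In tamoxifen the levels were 506.9 ± 22.2 for Per1, 493.8 ± 101.0 for Sgk1, 471.7 ± 2.83 for Tsc22d3, 430.3 ± 8.95 for Nr3c1, 266.9 ± 31.7 for Fkbp5 and 229.9 ± 42.9 for Zbtb16 (SD, n = 3). Sgk1, with tamoxifen 4 at 379.1 and tamoxifen 3 at 569.4, overlapped each of Per1, Tsc22d3 and Nr3c1 there.

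**Figure D5:**
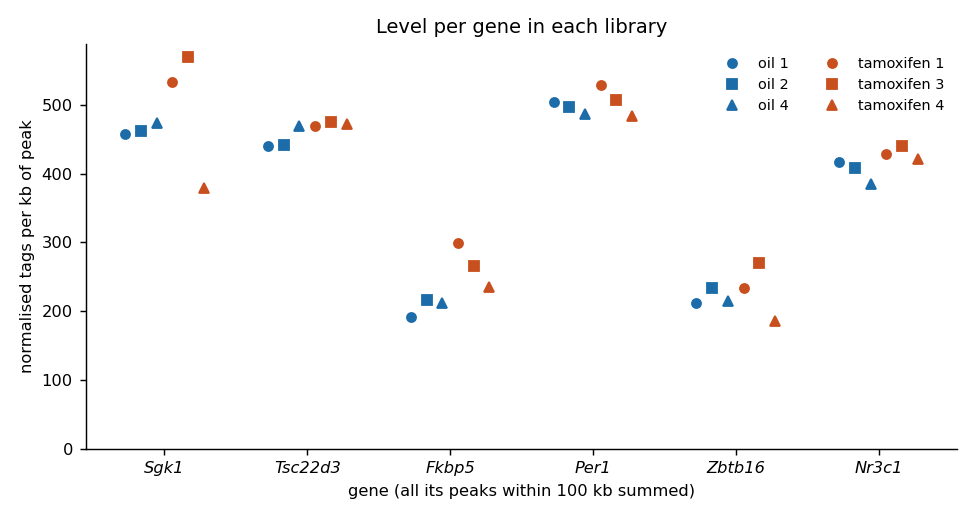
The summed level of each gene, in normalised tags per kb of peak, is plotted for every library, oil in blue and tamoxifen in orange. Fkbp5 and Nr3c1 have all tamoxifen points above all oil points, a pattern whose share over all genes was not counted. Sgk1 has tamoxifen 4 below oil and the 2 other tamoxifen libraries above.

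The other genes of the pathway were read from 3 lists, which were chosen with earlier results of these data known, so their counts are a description. Over all peaks 1.21% were higher and 0.167% lower at an adjusted p under 0.05. Further glucocorticoid-induced genes (18 genes, 298 peaks) had 9 peaks higher and 2 lower at an adjusted p under 0.05, with a median log2 fold change of 0.12. Of the 9, 5 were assigned to Bcl2l11, which encodes the pro-apoptotic BIM, with log2 fold changes from 0.50 to 1.67. Their distances to its TSS ran from -65595 bp to -41149 bp, and they lay in introns 14 and 15 of NM_028765. They were thus not promoter peaks, and a link to Bcl2l11 itself was not tested. Irs2, an adaptor of insulin signalling, had 2 higher and 1 lower, Nfkbia and Mt1 had 1 higher each, and the MAP kinase phosphatase gene Dusp1 had 1 lower (-0.99, SE 0.220). Receptor partners and hormone metabolism (8 genes, 92 peaks) had 1 higher, at the promoter of the mineralocorticoid receptor gene Nr3c2 (0.59, SE 0.117), and 1 lower, at the chaperone gene Hsp90ab1 (-0.56, SE 0.159). The median of that list was -0.16, with all 28 Hsp90aa1 peaks below 0. The SGK paralogs and substrates (7 genes, 174 peaks, median 0.01) had 21 higher and none (0) lower.

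These 21 peaks, whose share is to be read against the same 1.21%, lay at Ndrg1 (10 of 31 peaks), Nedd4l (9 of 28) and Foxo1 (2 of 18), which encode substrates of SGK1. None (0) of the 8 peaks of Sgk2, the 50 of Sgk3, the 38 of Foxo3 or the 1 of Gsk3b passed. At Ndrg1 the peak at -61150 bp held 30.9, 20.5 and 23.3 normalised tags in oil and 117.0, 85.8 and 65.2 in tamoxifen (log2 fold change 1.85, SE 0.299). At Foxo1 the peak at -70193 bp held 69.5, 75.1 and 69.9 in oil and 194.3, 212.8 and 111.8 in tamoxifen (1.27, SE 0.221). In both, the groups were well apart and tamoxifen 4 was the lowest tamoxifen library.

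Among the genes whose summed level was most like that of Sgk1 over the 6 libraries, of 15051 genes with at least 3 peaks, were Stard4 (Pearson r = 0.993), Isoc2a (0.991), Mtch1 (0.987) and Dnmt3l (0.986). This is a description over 6 libraries that share their size factors. At Stard4 the sums ran from 950.8 to 954.2 in oil and were 971.0, 980.4 and 932.3 in tamoxifen 1, 3 and 4, a range far narrower than that of Sgk1.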

How the data were processed

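ATAC-seq was made from 6 libraries (oil 1, 2 and 4, and tamoxifen 1, 3 and 4). Per the labels, Bowtie2 and mm10 served for mapping and HOMER for calling peaks in each group and merging them. The authors deposited raw tags per merged peak, an estimated count in steps of 0.5 with at most 3 tags per position. The deposited table also holds a peak score, which was not tested. Tags were rounded, 0.5 upwards. DESeq2 1.42.0 (Wald test, default size factors, no filter before the fit) was fitted over all 175929 peaks, and over 19781 genes with tags summed. Normalised tags are tags over size factors. The study's own test left out peaks within 3000 bp of a TSS, which was run as an alternative with edgeR 4.0.16 and others. Members and lists were chosen with earlier results of these data known. The naming rule took, per gene, the peak nearest to a TSS, the one with most tags, the 3 with the smallest p and any that passed. Not described above were those at Nr3c1 +106 bp (log2 fold change -0.22), Tsc22d3 -88 bp (0.11) and Per1 +4964 bp (0.32). Peaks outside the rule were named after their values were seen. Some results on other genes, a list of coregulators among them, are not reported here. The fits were tested on simulated data. Intervals cover the fit's own error. Sequences came from the mm10 RefSeq reference. For 74 of 101 member peaks, the distance to a reference TSS lay within 2 bp of the deposited distance. This held for none (0) of the Nr3c1 and Zbtb16 peaks. Columns not used were 0. Python 3.11.15 and R 4.3.3 were used.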

Additional observations from a re-analysis of the deposited data

How the results depend on the processing

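The 101 members gave 2 calls at an adjusted p and 12 at an unadjusted p under 0.05. These counts were 5 and 22 in edgeR's quasi-likelihood test, and 0 to 11 and 3 to 29 with 1 library left out, highest without tamoxifen 4. Calls over all peaks moved too, from 2430 to 5127 in edgeR, 618 without tamoxifen 3 and 6507 without tamoxifen 4. Fitting the distal peaks alone held 61 members, so the Fkbp5 promoter peak was not tested there, and left 1 adjusted call. A minimum mean of 50 tags left 3 and 6 calls but took out 40 members. It was added after seeing the data because the planned minimum of 10 removed no peak. Averaging oil 1 and oil 2, also added after seeing the data, gave 0 and 8. TMM, total mapped tags and a limit of 50000 bp left the adjusted count at 2. The summed Fkbp5 level lost its call with oil 1 and oil 2 averaged (0.36) and had log2 fold changes from 0.28 to 0.45 with 1 library left out. With 1 library left out, Sgk1 ran from -0.027 to 0.25, Per1 from -0.00072 to 0.065 and Zbtb16 from -0.074 to 0.19.

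The replicate numbers shared by the groups, 1 and 4, did not pair the libraries (correlation of their deviations -0.0436 and 0.0522). With the replicate block on those 4 libraries, 0 members passed at an adjusted p and 1 at an unadjusted p, and the summed levels were 0.39 for Fkbp5 (no longer called), -0.052 for Sgk1 and -0.038 for Zbtb16. Small changes turned sign in some fits. The Per1 peak at -3774 bp ran from -0.029 (without oil 4) to 0.030 with 1 library left out and was -0.023 with the block. The Sgk1 peak at -84 bp ran from -0.023 (without tamoxifen 3) to 0.054 and was -0.033 with the block, and the Zbtb16 peak from -0.061 (without tamoxifen 3) to 0.23 and -0.024. The cause was not tested. With a median of 45 to 57 tags per peak, modest changes in single low peaks were not detectable at this depth.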

Other observations

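The table assigned 4 further peaks to Nr3c1 that lie more than 100000 bp downstream of the start it used, and these were left out of every count above. The farthest, at +199284 bp, held 43.0, 42.9 and 35.9 normalised tags in oil and 61.9, 73.5 and 52.2 in tamoxifen (log2 fold change 0.62, SE 0.271, DESeq2, adjusted p = 0.386), and its groups did not overlap. The nearest, at +106471 bp, held 33.1, 35.1 and 40.3 in oil and 49.3, 49.0 and 52.2 in tamoxifen (0.47, SE 0.286, adjusted p = 0.703), again without overlap. The other two, at +188049 and +127647 bp, overlapped between the groups.

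Cd34, which marks immature hematopoietic cells, had the widest difference among the marker genes. Its promoter peak held 273.7, 343.2 and 435.0 normalised tags per kb in oil and 984.8, 1234 and 786.7 in tamoxifen 1, 3 and 4, whereas Kit, used in the sort, held 2425 to 2525 and 2397 to 2724.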
